A study of Mus musculus with 4 samples.

Results

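Among the tdTom+ cells sorted from mouse vertebrae, 119 of the 1757 cells that passed the cell filters (6.77%, 95% exact Clopper-Pearson interval 5.64 to 8.05) carried transcripts of hematopoietic cells. They were chosen by their counts of unique molecular identifiers (UMIs, each standing for 1 captured transcript). Passing cells had over 750 UMIs and over 500 detected genes, with mitochondrial transcripts below 7%. A member held at least 2 UMIs summed over Ptprc, Cd79a, Cd79b, Prtn3, Plac8 and Retnlg, no Sox9, no Cdh5 and fewer than 100 Col1a1 UMIs. The 3 classes described here were cut on the same counts. B lineage cells had at least 2 UMIs of Cd79a and Cd79b, early myeloid cells at least 1 of Prtn3, and neutrophils at least 1 of Retnlg. Values of these genes, and differences between the classes, are therefore given as descriptions with no test.

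Cells came from vertebrae T11 to L2 of mice at 3 months and at 12–16 months of age, with 1 library for each genotype and age. Controls were Prss56Cre/+;R26tdTom/tdTom;Nf1+/+ and mutants, called Prss56-Nf1fl/fl, were Prss56Cre/Cre;R26tdTom/tdTom;Nf1fl/fl. All mice carried the tdTomato reporter, which is switched on where the Prss56 locus has driven Cre. Mutants had 2 Cre alleles and controls 1, so Cre dose and Nf1 genotype cannot be told apart. The sort discarded cells stained for CD11b, CD31, CD45 or a dead cell dye and kept tdTom+ cells. The labels give no number of animals per library. The libraries held 9830308 (3-month control), 7450598 (3-month Prss56-Nf1fl/fl), 2226130 (12–16-month control) and 4680954 UMIs (12–16-month Prss56-Nf1fl/fl). With 1 library per condition there is no replicate check, and every interval below covers counting error only.

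Blood cells form in the marrow that fills vertebral bodies. B lymphocytes mature there from precursors that express a surrogate light chain, made from Vpreb and Igll1, to cells that express a rearranged immunoglobulin light chain. Neutrophils pass from progenitors loaded with primary granule proteases, such as myeloperoxidase and neutrophil elastase, through a stage rich in secondary granule proteins, to mature cells with gelatinase and chemokine receptors. Marrow stromal cells, which express Cxcl12, Lepr and Adipoq, surround these cells and are not hematopoietic. Nf1 encodes neurofibromin, which turns RAS off.

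The member cells made up a larger share of the passing cells in both Prss56-Nf1fl/fl libraries than in the control library of the same age. At 3 months they were 45 of 484 cells in the Prss56-Nf1fl/fl library (9.30%, 6.86 to 12.2) and 27 of 717 in the control library (3.77%, 2.50 to 5.43). At 12–16 months they were 43 of 421 cells (10.2%, 7.49 to 13.5) and 4 of 135 (2.96%, 0.813 to 7.41). The facing limits were 6.86% and 5.43% at 3 months and 7.49% and 7.41% at 12–16 months, the latter nearly touching. These intervals cover the counting of cells in 1 library each, so they do not measure a difference between genotypes. Barcodes that failed the cell filters but had at least 2 marker UMIs numbered 22 in the 3-month control and 10 in the 3-month Prss56-Nf1fl/fl library, so the 3-month shares depend on those filters. Genotype, Cre dose and library cannot be told apart here. Leaving out members rich in stroma, bone matrix or megakaryocyte transcripts left 22 in the 3-month control and 43 in the 3-month Prss56-Nf1fl/fl library. It left 0 in the 12–16-month control and 34 in the 12–16-month Prss56-Nf1fl/fl library. Of the 4 older control members, 3 were stroma-rich and 1 was rich in transcripts of megakaryocytes, which are hematopoietic. Since 1 of the 3 stroma-rich cells also held 141 Retnlg UMIs, the value of 0 does not mean that blood cells were absent there. Depth also differed, since the median member held 1756 UMIs in the 3-month control library, 11950 in the 3-month Prss56-Nf1fl/fl library, 27948.5 in the 12–16-month control library and 8672 in the 12–16-month Prss56-Nf1fl/fl library. The other passing cells had medians of 11656.5, 12824, 11654 and 8093 UMIs in the same order, so the 3-month control members were shallow beside their own library. No cell barcode was found in more than 1 library.

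**Figure D1:**
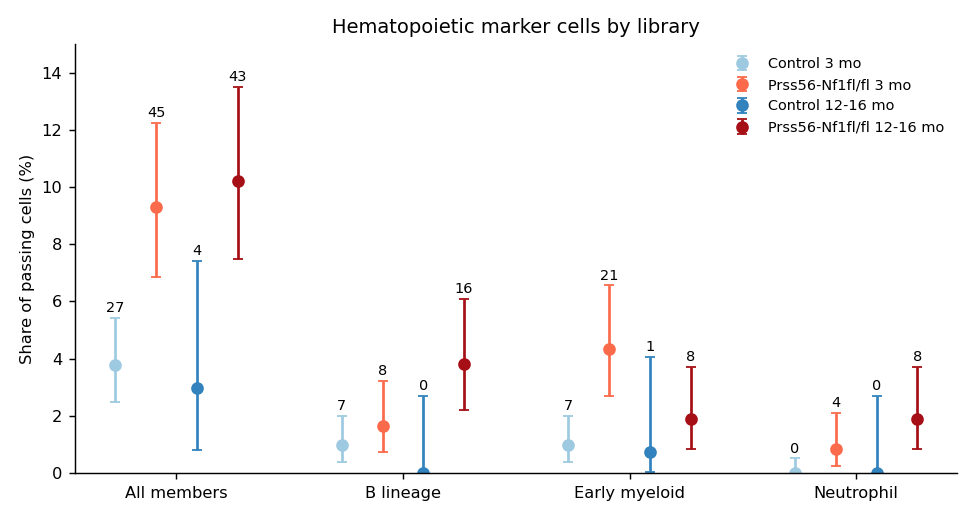
Share of passing cells (%, vertical axis) that were members or belonged to each class, by library; points are shares, bars are 95% exact Clopper-Pearson intervals and the number above each bar is the cell count. The Prss56-Nf1fl/fl libraries held 45 and 43 members against 27 and 4 in the control libraries, and no cell meeting the neutrophil rule alone was found in a control library.

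The 119 members fell into 31 B lineage cells, 37 early myeloid cells and 12 neutrophils, while 7 met 2 of the class rules and 32 met none. B lineage cells numbered 7 in the 3-month control, 8 in the 3-month Prss56-Nf1fl/fl, 0 in the 12–16-month control and 16 in the 12–16-month Prss56-Nf1fl/fl library. The 3-month control also held 10 members of no class that were not stroma-rich, with a median of 1182 UMIs, of which 9 carried Vpreb3 and 9 Ebf1, so its B lineage count depends on the threshold of 2 UMIs. No such member of the other libraries carried Vpreb3. Early myeloid cells numbered 7, 21, 1 and 8 in the same order. Neutrophils numbered 0, 4, 0 and 8. Taking 3 counts as the limit that a count of 0 allows, 0 of 717 cells allows a neutrophil share of up to 0.418% and 0 of 135 of up to 2.22% (exact Clopper-Pearson upper limits 0.513% and 2.70%), and the limits of the older library lie above the 1.90% found in the older Prss56-Nf1fl/fl library. A cell of the older control that met 2 rules had 141 Retnlg and 587 S100a8 UMIs, beside 712 of Cxcl12.

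The hematopoietic label did not hold for all members. Cxcl12, Lepr and Adipoq summed to between 196 and 856 UMIs in 15 members, and the next highest member held 30. Of these 15 cells, 1 had a Ptprc UMI (the CD45 gene), while all 15 had Plac8, at 2 to 14 UMIs with a median of 5. Their Cxcl12 level was 19684 CPM (a gene's UMIs scaled to a common total over the pooled cells), beside 19211 CPM in 39 equally stroma-rich passing cells that were not members, of which 9 had Plac8. Plac8 is in the rule that chose the members, so this contrast in Plac8 was largely set in advance. Of the 15, 12 belonged to no class. They numbered 3, 1, 3 and 8 in the 4 libraries, in the order above, and so made up 3 of the 4 members of the older control library.

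Other members sat near the threshold or held transcripts of a further cell type. In all, 12 members had exactly 2 marker UMIs, 8 had 3 and 72 had at least 10, while 60 passing cells just outside had 1. Ptprc was found in 83 members and was absent from 36. It was found in 4 of the 1638 other passing cells, and in none of the 1330 passing cells with Sox9, a cartilage transcription factor. In those Sox9 cells, with a median of 11993 UMIs, Prtn3 was found in 11, Cd79a in 8, Plac8 in 17 and Retnlg in 2. The source of these UMIs in cells of another type was not tested. Membership of the early myeloid class rested on 1 Prtn3 UMI in 3 cells and on 2 in 9 cells. Retaining cells with Sox9, Cdh5 or Col1a1 would have added 7 cells, 6 of them through Sox9.

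**Figure D2:**
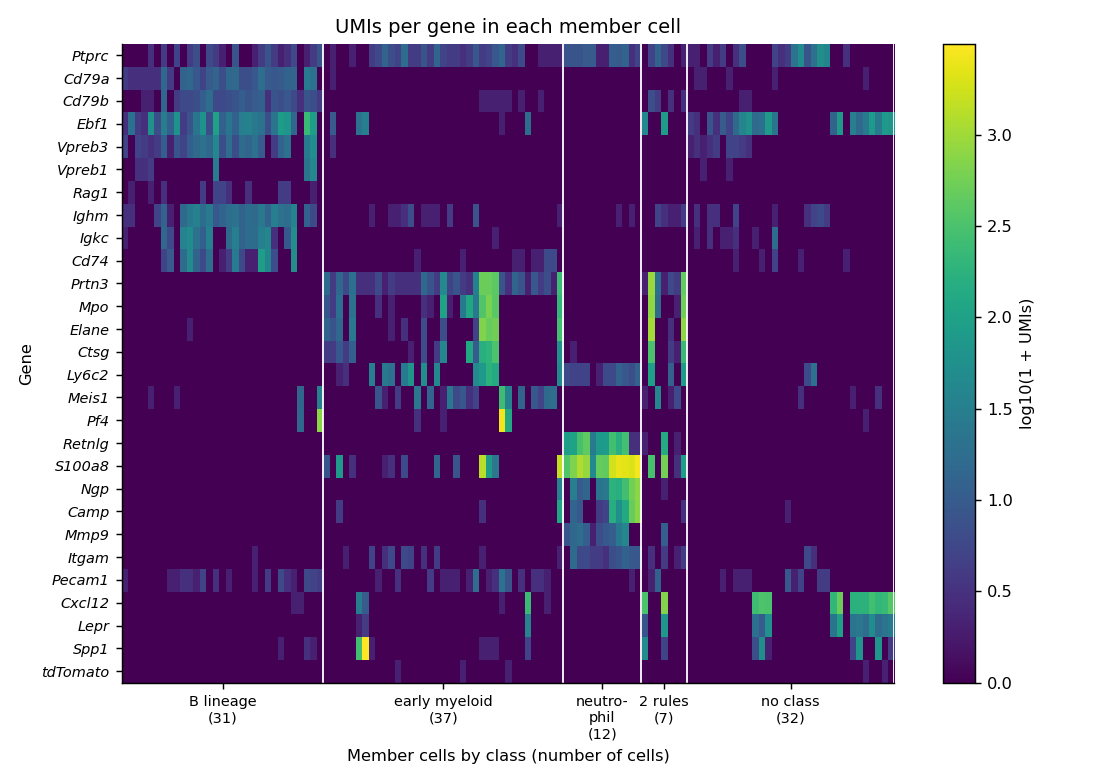
UMIs per gene (rows, color as log10 of 1 + UMIs) in each of the 119 member cells (columns), ordered by class and then by library. S100a8 is present in all 12 neutrophils, and the 15 stroma-rich members lie in the early myeloid class (1), among cells meeting 2 rules (2) and among cells of no class (12).

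B lineage cells expressed the transcription factors, receptor components and immunoglobulin genes of B lymphocytes. With genes of at least 20 UMIs over the 3 classes considered, 526 of 7379 (7.13%) were at least 2-fold higher in CPM in B lineage cells than in the higher of the other classes. The count was 280 without the 12–16-month Prss56-Nf1fl/fl library and 811 with each cell weighted equally. All 12 tested genes of the B identity list were among them, with a median log2 ratio of 3.27 beside -0.21 for all genes. All 6 tested early B genes and all 6 tested immunoglobulin constant genes were too, as were 4 of 5 MHC class II genes. Since these genes travel with Cd79a and Cd79b, which chose the cells, the counts describe the class and test nothing.

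Ighm, the heavy chain of IgM (chromosome 12, 113418558 to 113422730, GRCm38), had 392 UMIs in 25 of the 31 cells. Its level was 1323 CPM in the 3-month control, 3273 in the 3-month Prss56-Nf1fl/fl and 2075 in the 12–16-month Prss56-Nf1fl/fl library. Over all B lineage cells it was 71.8-fold higher than in early myeloid cells (47.9 to 112). The level was lowest in the control library, whose B lineage cells had a median of 1254 UMIs. Ebf1, a transcription factor that commits progenitors to the B lineage, had 1050 UMIs in 29 cells and was 63.3-fold higher. Its level was 7938, 7021 and 5555 CPM in the same 3 libraries. The value of the 12–16-month library was set partly by 1 cell of 40909 UMIs, 34.2% of that pool, which had 778 Pf4 UMIs, 3 of Cd79b and none of Cd79a, Ebf1 or Ighm. Without it, in an alternative added after the data were seen, Ighm stood at 3155 CPM and Ebf1 at 8446 CPM there, the latter the highest of the 3 libraries. Ebf1 also had 669 UMIs in members of no class and 248 CPM in the other passing cells, so on its own it did not mark B lineage cells here.

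Igkc, the kappa light chain constant gene, was at least 70.9-fold higher than in neutrophils, where it had no UMI. Here and below, folds given as at least put 3 counts in place of a count of 0. The exact Poisson upper limit of a count of 0 is above 3 counts and would give lower folds. Cd74, the invariant chain of MHC class II, and Vpreb3, a chaperone of immature B cells, were each at least 61.5-fold higher. Ly6d and Pax5, early marker and master regulator of the lineage, were at least 38.3-fold and at least 19.1-fold higher. Cd74 was found in 17 of 31 cells and reached 89 UMIs in 1 cell.

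The B lineage cells separated by immunoglobulin light chain. Sums of at least 5 UMIs, a threshold chosen after the values were seen, were found for the 8 early B genes in 9 cells and for the 4 light chain genes in 19 cells. Of these, 3 cells had both, 6 had the early set alone and 16 had light chain alone. The remaining 6 cells had neither, and 2 of those 6 carried Pf4, a platelet factor. In the 6 cells with the early set alone, Igll1, a component of the surrogate light chain, was found in 6 cells, Dntt, which adds bases at immunoglobulin joins, in 5 and Vpreb1 in 4, while Cd74 was found in none. In the 19 light chain cells, Cd74 was found in 17 and Ighm in all 19, while Vpreb1 and Dntt were found in none. The proliferation gene Mki67 was found in 3 of the 6 early cells and in 0 of the 19 light chain cells, whose median depths were 6304.5 and 3832 UMIs.

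**Figure D3:**
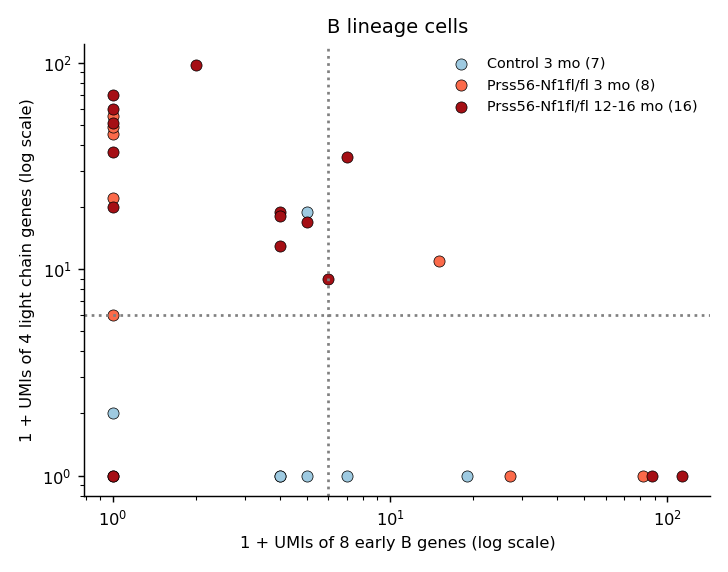
Each point is 1 of the 31 B lineage cells, placed by 1 + UMIs of the 8 early B genes and 1 + UMIs of the 4 light chain genes (both log axes), colored by library; dotted lines mark sums of 5 UMIs. Of the 31 cells, 6 lie at or past the line for the early set alone, 16 at or past that for light chain alone and 3 at or past both.

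By library, the 6 early cells were 2 in the 3-month control, 2 in the 3-month Prss56-Nf1fl/fl and 2 in the 12–16-month Prss56-Nf1fl/fl library. The 19 light chain cells were 1, 6 and 12 in the same order. B lineage cells of the 3-month control were also the shallowest, and a light chain below detection could not be told from an absent one there. Kappa UMIs numbered 385 and lambda UMIs 251. At a minimum of 3 UMIs, 7 cells had kappa alone, 3 had lambda alone, 9 had both and 12 had neither. Iglc2 and Iglc3 are close paralogs, so how UMIs were split between them is uncertain. Ighd, the heavy chain of IgD found on mature B cells, had 21 UMIs in 8 cells, and of the class-switched heavy chains Ighg1, Ighg2c, Ighg3 and Igha had none and Ighg2b had 2 UMIs.

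Early myeloid cells held primary granule genes. Of 7379 genes, 441 (5.98%) were at least 2-fold higher in them than in the higher of the other classes. The count was 159 without the 12–16-month Prss56-Nf1fl/fl library and 708 with each cell weighted equally. It was 201 with every cell that met a rule, where Elane, Mpo, Ctsg and Ms4a3 were below another class. Elane, neutrophil elastase (chromosome 10, 79886247 to 79888215, GRCm38), had 2072 UMIs and 2622 CPM, at least 83.2-fold above neutrophils. Mpo, myeloperoxidase (chromosome 11, 87793581 to 87804413), had 2424 CPM and was at least 77.0-fold higher, and Ctsg, cathepsin G, had 1179 CPM and was at least 67.8-fold higher. Ms4a3, a gene of granulocyte and monocyte progenitors, was 29.5-fold higher (8.08 to 245). These genes were concentrated in few cells, since Elane was found in 13 of 37 cells and its 4 highest cells held 96.3% of its UMIs.

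Elane stood at 1143 CPM in the 3-month control, 2934 in the 3-month Prss56-Nf1fl/fl, 0 in the 12–16-month control and 3028 CPM in the 12–16-month Prss56-Nf1fl/fl library. In the 3-month control class, 2 cells rich in bone matrix transcripts held 17317 and 25096 of 50759 UMIs and no Elane. In the 3-month Prss56-Nf1fl/fl class, 1 megakaryocyte-rich cell held 193137 of 591649 UMIs and no Elane. Without these cells the 3-month control value would be the higher of the 2. The older control had 1 early myeloid cell and the older Prss56-Nf1fl/fl value came from 1 of 8 cells. Of the 1736 Elane UMIs in the 3-month Prss56-Nf1fl/fl class, single cells held 686, 547 and 484. None of these values is thus a level of a population. Of 9 primary granule genes, 4 were called in early myeloid cells (Mpo, Elane, Ctsg and Prss57) and 1, Lyz2 for lysozyme, in neutrophils. Of 10 tested early myeloid regulators, 4 were called in early myeloid cells (Ms4a3, Cebpa, Kit and Flt3), 2 in neutrophils (Cebpe and Fcnb) and 1 in B lineage cells (Sox4). Over all genes the shares were 5.98% in early myeloid cells, 7.35% in neutrophils and 7.13% in B lineage cells, and a count of 1 in a list of this size is near them. Kit, a receptor of progenitors, had 98.7 CPM in 18 early myeloid cells, 1 UMI in B lineage cells and 0 UMIs in neutrophils. Fn1, fibronectin, was 17.1-fold and Hspa1a, a heat shock gene, 11.9-fold higher, with 45.5% of the Hspa1a UMIs in 1 cell.

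The early myeloid class was mixed. By sums chosen after the values were seen, 13 cells had at least 10 UMIs of Mpo, Elane and Ctsg, 15 had at least 10 UMIs of the stem and progenitor list, led by Meis1, and 12 had at least 25 of the monocyte list. Of these, 6 cells passed both the protease and the monocyte sums, 1 passed the protease and the stem sums, and none passed both stem and monocyte sums. A sum could rest on 1 gene, since a 3-month Prss56-Nf1fl/fl cell of 33281 UMIs passed the monocyte sum through 74 UMIs of Ly6c2. Cells past the monocyte sum numbered 11 in the 3-month and 1 in the 12–16-month Prss56-Nf1fl/fl library. All had Ly6c2, a monocyte surface gene, while F13a1, a coagulation factor subunit, was found in 10 of the 11 and not in the 1. That 1 cell too passed almost wholly through Ly6c2, with 45 UMIs in a sum of 46, beside 540 UMIs of Mpo, Elane and Ctsg. Stem genes were high in 8 and 6 cells of those libraries and in the 1 cell of the older control. That cell and 1 of the 8 were rich in megakaryocyte transcripts, with 193137 UMIs and 256 of Meis1 in the latter. Without members rich in stroma, bone matrix or megakaryocyte transcripts, Meis1 in the class went from 436 UMIs (552 CPM) to 147 UMIs (301 CPM). The 7 cells of the 3-month control had neither monocyte nor stem genes at these sums, though 4 had the proteases, and their median depth was 2193 UMIs beside 15883 in the 3-month Prss56-Nf1fl/fl library.

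Single cells decided several early myeloid values. Spp1, osteopontin, and Ibsp, bone sialoprotein, ranked first and sixth, but 1 cell of the 3-month control library held 91.6% of the Spp1 UMIs and 59.9% of the Ibsp UMIs. Without members rich in stroma, bone matrix or megakaryocyte transcripts, Spp1 had 4 UMIs in early myeloid cells (8.18 CPM) and 4 in B lineage cells (30.4 CPM), and Ibsp had 1 UMI in early myeloid cells. The deepest member, of the 3-month Prss56-Nf1fl/fl library, had 193137 UMIs, which was 24.4% of the class, with 2611 UMIs of Pf4, 121 of Itga2b and 83 of Vwf, genes of megakaryocytes. Without those members Pf4 fell from 3471 to 6.13 CPM in the class, while Mpo stood at 3918 CPM.

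Neutrophils held secondary granule and calprotectin genes. Of 7379 genes, 542 (7.35%) were at least 2-fold higher in them. The count was 280 without the 3-month Prss56-Nf1fl/fl library and 828 with every cell that met a rule. All 8 secondary granule genes, all 14 tested mature neutrophil genes and all 6 subunits of the NADPH oxidase, which makes superoxide, were among these. The median gene was lower in neutrophils (log2 ratio -0.85) than in the higher of the other classes, beside -0.21 in B lineage and -0.25 in early myeloid cells. S100a8 and S100a9, the subunits of calprotectin, stood at 160815 and 164719 CPM, and CPM divides 1 total among all genes. CPM ratios of neutrophils are thus relative to that shift. Both calprotectin genes were found in all 12 cells.

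Ngp, neutrophilic granule protein (chromosome 9, 110419747 to 110423012, GRCm38), had 2049 UMIs in 10 of 12 cells and was 486-fold above early myeloid cells. Lcn2, lipocalin 2, was 213-fold and Camp, the cathelicidin, 112-fold higher. Ltf, lactoferrin, was at least 232-fold, Mmp8 at least 102-fold and Mmp9, gelatinase B, at least 83.9-fold higher than in B lineage cells, which had none of the 3. Cstdc4, a stefin family gene, was at least 92.4-fold and Ifitm6, an interferon-induced membrane gene, 72.2-fold higher. Ngp stood at 2147 CPM in the 3-month Prss56-Nf1fl/fl library and at 28108 CPM in the 12–16-month library. Camp stood at 867 and 22168 CPM. Retnlg, which chose the cells, went the other way, at 38484 and 12752 CPM. There was no control neutrophil to set beside them.

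The 12–16-month library held 2 neutrophils that stood apart. They had 2 Retnlg UMIs each, 568 and 769 of Ngp, 480 and 753 of Camp and 14 and 18 of Mki67, and no Mmp9. The 10 other neutrophils had 26 to 438 Retnlg UMIs, at most 277 of Ngp, no Mki67 and 1 to 41 of Mmp9. The chemokine receptor Cxcr2 was found in all 10 of those cells and in 1 of the 2. The split was seen after the values, and the 2 cells were also the deepest neutrophils, at 17262 and 18289 UMIs. Without them, in an alternative added after the data were seen, the 6 other neutrophils of that library stood at 18594 CPM of Ngp, 9635 of Camp and 25411 of Retnlg, so each gene kept its order between the ages.

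**Figure D4:**
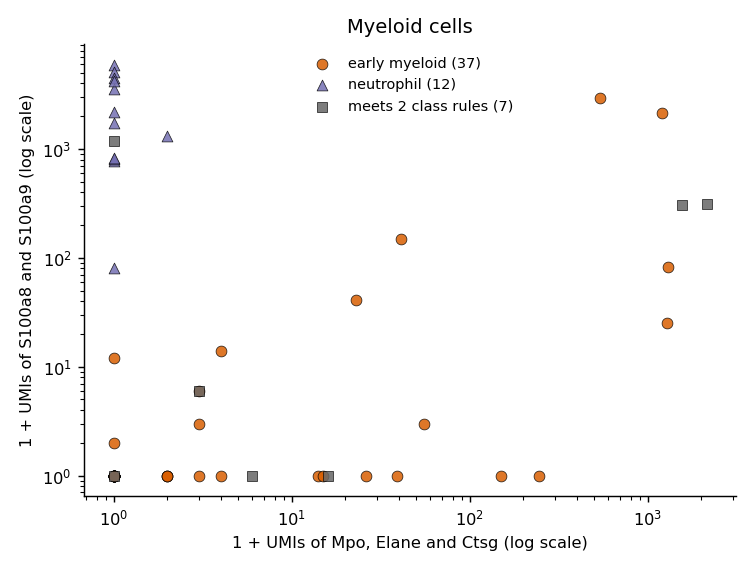
Each point is 1 cell of the early myeloid class, the neutrophil class or the 7 cells meeting 2 class rules, placed by 1 + UMIs of Mpo, Elane and Ctsg and 1 + UMIs of S100a8 and S100a9 (both log axes). Neutrophils lie high on the vertical axis at 0 or 1 protease UMIs, and a few early myeloid cells and cells meeting 2 rules are high on both.

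Of the 7 cells that met 2 rules, 4 were B lineage and early myeloid and 3 were early myeloid and neutrophil. They held 41.4% of all Mpo UMIs and 46.9% of all Elane UMIs of the members. The 2 highest of them had 915 and 463 Prtn3 UMIs beside 6 and 2 of Cd79b, and 807 and 532 of Mpo. They were left out of the class comparison.

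Of the 32 members of no class, 12 were stroma-rich and 3, all from the 3-month Prss56-Nf1fl/fl library, held genes of the natural killer cell list, with 39 to 52 Ptprc UMIs, Klrd1 in 2 of the 3 (up to 39 UMIs) and Gzma in 1 (48 UMIs). T cell genes were present too, at 10 to 25 UMIs over 3 to 4 genes, with Trbc1 in all 3 and Cd3e in none. A further 2 members of no class had T cell genes and no gene of the natural killer list. The cell of the 3-month Prss56-Nf1fl/fl library had 42 UMIs over 8 genes with 6 of Cd3e, and the other, of the 12–16-month Prss56-Nf1fl/fl library, had 19 UMIs over 7 genes with 1 of Cd3e. Mcpt8, a basophil protease, was found with Cpa3 in 3 members of the 3-month Prss56-Nf1fl/fl library, 2 of them early myeloid, and reached 213 UMIs. Of 11 erythroid genes, 7 were at least 2-fold lower in members than in the other passing cells and 1, Car2, was higher, beside 19.1% lower and 22.2% higher of all 15496 genes tested, with the hemoglobin gene Hbb-bs at 5.21 and 749 CPM.

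The antibodies of the sort were aimed at proteins whose transcripts the members carried. Ptprc was in the rule, and its level was 341 CPM in members (312 to 371), 203 CPM without the 3-month Prss56-Nf1fl/fl library and 603 CPM with each cell thinned to 750 UMIs. Itgam, the CD11b gene, was not in the rule. It was found in 11 of 12 neutrophils at 766 CPM (601 to 963), in 10 of 37 early myeloid cells at 35.4 CPM and in 1 of 1638 other passing cells. Pecam1, the CD31 gene, was found in 17 of 31 B lineage cells at 226 CPM (161 to 309), in 16 of 37 early myeloid cells at 79.7 CPM and in 54 of the 1638 other cells, at 6.53 CPM. Protein on the surface was not measured here.

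tdTomato, the reporter of the sort, had 5 UMIs in 5 of 119 members (3.25 CPM) and 159 UMIs in 127 of 1638 other passing cells (7.32 CPM). The ratio was 0.445 with an interval of 0.142 to 1.06, so over all members a difference was not detectable at this depth. Without the 15 stroma-rich members, a choice made after the values were seen, it was 0.313 (0.0639 to 0.932), from 3 UMIs, an interval below 1. Of those 3 UMIs, 1 lay in the megakaryocyte-rich cell of the 12–16-month control, so the upper limit hangs on single counts. The reading thus depended on which members were kept, and no difference is claimed. B lineage cells and neutrophils had no tdTomato UMI, which allows up to 21.4 and 38.7 CPM by the exact Poisson interval, above the level in the other cells. Prss56 had no UMI in members and 1 in the other passing cells.

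**Figure D5:**
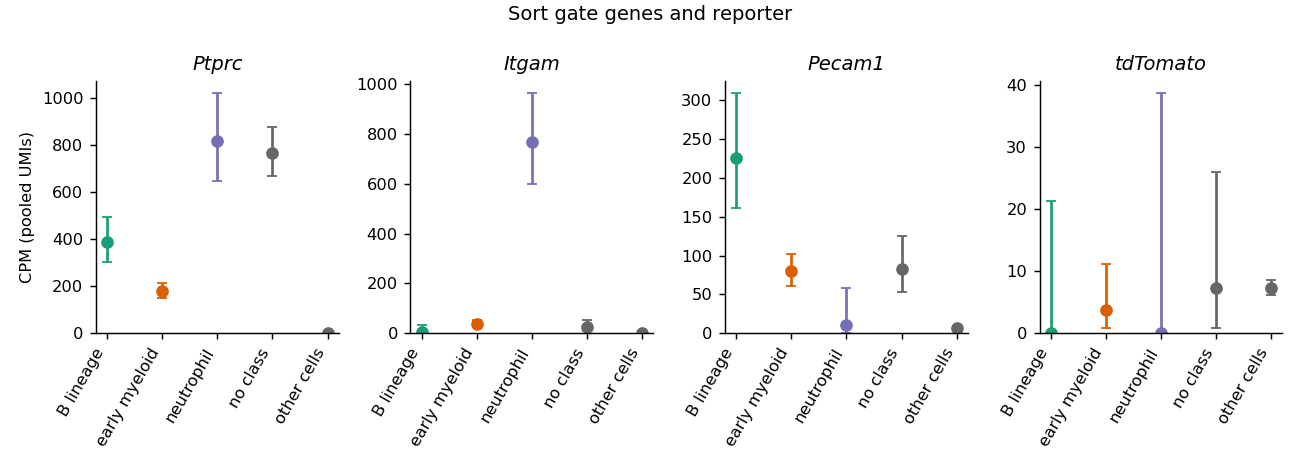
Level (CPM of pooled UMIs, linear axes) of Ptprc, Itgam, Pecam1 and tdTomato in the 3 classes, in members of no class and in the 1638 other passing cells; bars are 95% exact Poisson intervals. Itgam is highest in neutrophils at 766 CPM and Pecam1 in B lineage cells at 226 CPM, while the tdTomato intervals overlap.

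Nf1 had 138 UMIs in 58 members (89.8 CPM) and 140.8 CPM in the other passing cells, a ratio of 0.638 (0.534 to 0.756). In members it stood at 189.5 CPM in the 3-month control (120.1 to 284), 67.3 in the 3-month Prss56-Nf1fl/fl (51.1 to 87.0), 177.2 in the 12–16-month control (111 to 268) and 81.5 CPM in the 12–16-month Prss56-Nf1fl/fl library (56.8 to 113). In the other passing cells it was 130.6, 160.7, 145.3 and 130.2 CPM in the same order. The kinds of cell among the members differed between libraries. Without members rich in stroma, bone matrix or megakaryocyte transcripts, 5 Nf1 UMIs were left in the 3-month control (133 CPM, 43.2 to 310.2), beside 80.8 CPM (60.5 to 106) in the 3-month and 49.4 CPM (27.0 to 83.0) in the 12–16-month Prss56-Nf1fl/fl library, and no member was left in the older control. The 2 intervals at 3 months then overlapped. Of 7 genes that restrain RAS signalling, 2 (Rasa3 and Rasal3) were at least 2-fold higher and 1 (Spred1) lower in members, shares near the 22.2% and 19.1% of all genes. A 3′ count does not show whether the floxed exons were removed.

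Members differed from the other passing cells across the transcriptome. Of 15496 genes tested, 3444 (22.2%) were at least 2-fold higher and 2960 (19.1%) at least 2-fold lower. All 20 cell cycle genes were higher, summing to 3974 CPM in members and 622 in the others, as were all 10 interferon response genes, at 801 and 86.9 CPM. All 9 chondrocyte genes were lower, which the exclusion of Sox9 favors. Of 9 immediate early and heat shock genes, which tissue digestion is known to raise, 7 were lower in members, summing to 3181 CPM beside 14862 CPM. Within members that sum was 1119 CPM in B lineage cells, 4164 in early myeloid cells and 2782 in neutrophils.

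Genes of retention in and release from marrow were measured in each class. Cxcr4, the receptor of Cxcl12 that holds cells in marrow, was found in 60 members, at 185 CPM in B lineage cells, 108 in early myeloid cells and 115 in neutrophils. Itga4, an integrin subunit, was higher in B lineage cells, at 348 CPM beside 125 in early myeloid cells and 0 UMIs in neutrophils. S1pr1, a receptor that draws cells into blood, was also higher there, at 110 CPM beside 19.0 in early myeloid cells and 0 UMIs in neutrophils. The integrin subunits Itgb2 and Itgal and the chemokine receptor Cxcr2 were higher in neutrophils, at 409, 115 and 420 CPM.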

How the data were processed

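The deposited values were raw UMI counts of 4 10x 3′ libraries, which the authors made with Cell Ranger 8.0.0 (file header) on mm10 with tdTomato added. Totals were 9830308, 7450598, 2226130 and 4680954 UMIs for the 3-month control, 3-month Prss56-Nf1fl/fl, 12–16-month control and 12–16-month Prss56-Nf1fl/fl libraries. Correction for free RNA was not repeated.

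Members, classes, gene lists and comparisons were chosen with earlier results of these data known. Counts were summed over cells meeting exactly 1 class rule, scaled to CPM with Python 3.11.15 and divided by the higher of the other classes. A count of 0 was replaced by 3 counts per class to give a bound, where the exact Poisson upper limit would give lower folds. No test was made, as each condition had 1 library and classes were cut on the same counts. Intervals at 95% were exact Poisson, conditional binomial or Clopper-Pearson. Named genes were the 8 with the highest ratio per class among those with at least 50 UMIs, higher in each library with at least 5 cells on both sides, leaving out rule, mitochondrial, ribosomal protein, hemoglobin, immunoglobulin V and unnamed genes, with list genes added. Sums that split cells within classes were chosen after their values were seen. Neutrophils had 1 such library. The comparison was run on simulated counts drawn with Poisson spread around the pooled class means. Those counts lack the spread between cells seen here, so they do not bear on values set by single cells. Coordinates came from GENCODE. Doublets were kept, and Scrublet (scanpy 1.11.5, expected rate 6%) marked 2 members. Its calls on other cells changed with numerical rounding, so only marked members were removed when doublets were left out. Other alternatives changed the membership and class thresholds, cells kept, gene minimum, weighting, scaling (TMM, edgeR 4.0.16), zero handling, depth and libraries, and those added after seeing the data left out members rich in stroma, bone matrix or megakaryocyte transcripts, or the 2 neutrophils with 2 Retnlg UMIs. Some genes of the lists are not reported here.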

Additional observations from a re-analysis of the deposited data

Results flagged for a closer look

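Barcodes outside the cell filters carried the same markers. Of 415 such barcodes, 35 had at least 2 marker UMIs, 22 of them in the 3-month control, 10 in the 3-month Prss56-Nf1fl/fl, 1 in the 12–16-month control and 2 in the 12–16-month Prss56-Nf1fl/fl library. Of the 35, 24 were too shallow and 12 had at least 7% mitochondrial counts. They included 18 that met the early myeloid rule, 7 that met the B lineage rule and 0 that met the neutrophil rule.

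The share of cells meeting 2 class rules was higher in the Prss56-Nf1fl/fl library at 3 months (by 0.620 percentage points) and lower at 12–16 months (a difference of -0.0282 percentage points). This opposite direction was not tested, and the older control value came from 1 cell.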

How the results depend on the processing

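Leaving out each library in turn gave a member share of 5.69 to 8.85%, and class shares of 1.12 to 2.31% for B lineage cells, 1.26 to 2.88% for early myeloid cells and 0.299 to 1.15% for neutrophils. The counts of genes higher in a class ranged from 280 to 540 for B lineage cells (lowest without the 12–16-month Prss56-Nf1fl/fl library), 159 to 429 for early myeloid cells (lowest without the same library) and 280 to 538 for neutrophils (lowest without the 3-month Prss56-Nf1fl/fl library). The level in members ranged from 203 to 378 CPM for Ptprc, 57.8 to 85.9 for Itgam and 66.7 to 94.8 for Pecam1. With class thresholds of 4, 3 and 3 UMIs the B lineage share was 1.20%. With a gene minimum of 50 UMIs the gene counts were 255, 285 and 260 for B lineage, early myeloid and neutrophil cells. With each cell weighted equally they were 811 for B lineage and 708 for early myeloid cells, and with every cell that met a rule 201 for early myeloid cells and 828 for neutrophils. Thinned to 750 UMIs per cell, Ptprc stood at 603, Itgam at 128 and Pecam1 at 127 CPM, and without members rich in stroma, bone matrix or megakaryocyte transcripts at 508, 118 and 112 CPM. With Sox9, Cdh5 or Col1a1 cells not left out, Ptprc stood at 311 CPM. The cause of these shifts was not tested.

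For named genes, 290 of the values under alternatives kept their direction within the counting interval, 60 moved and 10 reversed. The log2 ratio of Spp1 in early myeloid cells was -1.53 at a membership threshold of 3 UMIs, -3.27 at the stricter class thresholds, -1.94 without the rich members and -1.54 to 8.67 leaving out each library, lowest without the 3-month control. Ibsp was at -4.44 at the stricter class thresholds and -3.94 without the rich members. With every cell that met a rule, Elane was at -0.55, Mpo at -0.37, Ctsg at -0.20 and Ms4a3 at -0.47, since cells meeting 2 rules then counted in both classes.

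Barcodes that 1 caller marked as doublets were removed only among members, which departs from the planned setting. No paired analysis was possible because the labels carry no replicate numbers and each condition had 1 library. No class had at least 10 cells in both libraries of an age, so class lists were not compared between genotypes and the alternatives planned for them were not run.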
